A study of Mus musculus with 161 samples.

Results

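Mouse embryonic stem cells in which residues 13 to 33 were removed from the endogenous CTCF protein were compared by 5C with the cells they were made from. Members were chosen by genotype and treatment: all 5C libraries from untreated CTCF-AID cells that carry the endogenous 13-33 deletion, 8 libraries (4 of clone 1, line EN277.1, and 4 of clone 2, line EN277.2), set against the 4 libraries from the untreated parental CTCF-AID line EN52.9.1. They were 8 of 91 5C libraries in the series. Every cell descends from the male E14Tg2a line, so there is 1 X chromosome per cell. Parental and deletion cells alike carry CTCF fused at its endogenous alleles to an auxin-inducible degron (AID) with eGFP, and the Tir1 protein that lets auxin trigger its degradation, inserted at random. None of the 12 libraries came from cells given auxin or doxycycline, and 5C does not measure CTCF levels. The deletion was homozygous per the study's list of lines, and each mutant line is 1 clone, so libraries of a clone are repeats of 1 cell line. Untagged cells are those with the same deletion made in E14Tg2a without the degron (7 libraries of 2 clones) and their parental cells (3 libraries), also untreated.

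CTCF binds DNA through its zinc fingers and halts cohesin, the ring complex that extrudes chromatin loops, so that its sites become boundaries between topologically associating domains and anchors of loops. The CTCF N terminus is the part that faces cohesin arriving from within a loop, and the deleted residues lie in it. 5C captures ligated restriction fragments with a set of alternating primers over a chosen region, here the X-inactivation centre on chromosome X, which holds Xist, the RNA that coats and silences the inactive X, and its antisense repressor Tsix. Insulation across a boundary means that contacts between its sides are depleted.

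The sequence removed from Ctcf is shown first, since it defines the mutant. In the mm9 assembly, codons 13 to 33 are the 63 bases at chr8:108187699-108187761 on the plus strand, inside exon 3 of 12 of the GENCODE transcript, entirely coding. The capitals mark the codons removed in the line below, which adds 30 bases on either side.

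Ctcf codons deleted: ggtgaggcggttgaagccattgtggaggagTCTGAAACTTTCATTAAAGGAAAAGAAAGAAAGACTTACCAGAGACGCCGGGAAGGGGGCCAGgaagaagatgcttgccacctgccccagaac

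The guide RNA used for the edit matched the minus strand at chr8:108187685-108187707, with its PAM in capitals, and placed the cut 8 bases before the first deleted base.

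Guide: agtttcagactcctccacaaTGG

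5C carries no reads over this exon, so the edit itself could not be checked in these libraries.

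CTCF sites at the boundaries studied are shown next, because they are the DNA the truncated protein has to act from. The study listed 6 boundary bins of 20 kb. A peak list of FLAG-tagged full-length CTCF from another line held 78 peaks in the 4600-kb region, and 11 of them lay in boundary bins: 1 at boundary 1, 3 at boundary 2, 1 at boundary 3, 3 at boundary 4, 0 at boundary 5 and 3 at boundary 6. The core of the CTCF motif, spelled CCA, 2 free bases, AG, 2 free bases and GGC and searched on both strands, was found in 8 of those 11 peaks, on the plus strand in all 8. In the whole region it was found in 31 of 78 peaks (39.7%), 18 on the plus and 13 on the minus strand. Over the complete list of 49682 peaks the share was 40.7%, and in regions of the same length 100 kb away it was 1.66%. The windows below are on the plus strand of mm9 chromosome X, each with 20 bases on either side of the motif, which is in capitals.

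Boundary 1 (chrX:99170390-99170441, intron of Nhsl2): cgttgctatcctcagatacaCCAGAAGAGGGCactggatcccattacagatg
Boundary 2, first peak (chrX:99414641-99414692, no gene): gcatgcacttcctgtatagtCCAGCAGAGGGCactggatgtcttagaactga
Boundary 2, second peak (chrX:99415152-99415203, no gene): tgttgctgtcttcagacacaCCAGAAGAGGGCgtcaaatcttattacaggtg
Boundary 3 (chrX:100455373-100455424, intron of 4930519F16Rik): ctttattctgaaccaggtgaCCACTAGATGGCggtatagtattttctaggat
Boundary 4, first peak (chrX:100677053-100677104, exons of Tsix and Xist): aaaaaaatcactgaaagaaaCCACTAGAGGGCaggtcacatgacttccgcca
Boundary 4, second peak (chrX:100679551-100679602, exon of Tsix): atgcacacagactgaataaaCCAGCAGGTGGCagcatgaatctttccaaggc
Boundary 6, first peak (chrX:103214275-103214326, intron of Cox7b): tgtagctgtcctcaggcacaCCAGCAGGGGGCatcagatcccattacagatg
Boundary 6, second peak (chrX:103221914-103221965, no gene): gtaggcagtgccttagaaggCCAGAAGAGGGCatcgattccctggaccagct

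The 12 libraries held between 7035451 and 13746459 counts. Library numbers fell into 2 stretches, called runs here: replicates 1 and 2 of every line in the first, replicates 3 and 4 in the second, so each run held 2 parental and 4 deletion libraries. The runs differed more than the genotypes did. Between runs, 733 of 19072 bin pairs (3.84%) and 50 of 193 bins of the insulation profile (25.9%) passed an adjusted p of 0.05 in limma, so every comparison was made within runs, with both runs weighted equally. Clone 2 replicate 3 stood apart: it had the fewest counts, 70.7% of its primer pairs were at 0 against 35.2% to 58.9% in the other 11, and 54.8% of its counts joined fragments under 100 kb apart against 59.0% to 67.2%. Values without it are given beside the boundary, distance and cross-boundary differences it moved most, and the differences near 0 have their leave-one-out ranges at the end.

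Insulation was compared first, to ask whether boundaries weaken when CTCF lacks residues 13 to 33. The insulation score is on a log2 scale with its sign turned: contacts inside a 100-kb square spanning a bin were averaged and divided by the average over all such squares, so a higher score is a stronger boundary. Averaged over the 6 boundaries, the score of the deletion cells stayed inside the parental range. Parental replicates 1 to 4 scored 0.708, 0.691, 0.792 and 0.825. Clone 1 scored 0.696, 0.733, 0.789 and 0.809. Clone 2 scored 0.775, 0.764, 0.728 and 0.744. All 8 deletion libraries lay within the parental range. Within the first run 3 of 4 deletion libraries lay above both parental ones, and in the second run 3 of 4 lay below both. The difference, deletion minus parental, was 0.0011 (95% interval -0.0537 to 0.0558; two-sided exact permutation test within runs, p = 0.96, n = 4 and 8; the smallest p this design can give is 0.00444). It was 0.0427 in the first run and -0.0406 in the second, 0.0031 for clone 1 and -0.00097 for clone 2, and 0.0077 without clone 2 replicate 3 (exact permutation p = 0.740). On raw counts, without the iterative correction, it was -0.0404 (exact permutation p = 0.0444).

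How far this score moves between a transgene rescue and loss of CTCF gives a scale. CTCF-AID cells with an added doxycycline-inducible full-length CTCF transgene were treated with auxin for 4 days, which degrades the tagged protein. With doxycycline, 14 libraries averaged 0.607 ± 0.040 (SD), and the 2 libraries without it were at 0.373 and 0.384. The paper reports that this transgene was expressed well below endogenous CTCF-AID, so the rescue was partial. The untreated CTCF-AID parental libraries averaged 0.754. Without doxycycline the score fell by 0.229 from the level with it, given with no test. The interval of the deletion's effect ended at -0.0537 on that side.

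At single boundaries the differences had both signs, and none passed the test. The listed bin of boundary 1, within Nhsl2, sat just beside a peak of the profile and scored below 0 in every library: the 4 parental libraries lay between -0.107 and -0.057, the deletion libraries between -0.236 and -0.065 with a median of -0.133. Deletion scores were lower than every parental score in 6 of 8 libraries, and the difference was -0.046 (exact permutation p = 0.173). Boundary 2, in the bin next to Cited1, a transcriptional co-regulator, was between 0.670 and 0.818 in parental cells and between 0.714 and 0.896 in deletion cells with a median of 0.749, a difference of 0.035 (p = 0.204, exact permutation) that was 0.021 without clone 2 replicate 3 and 0.019 without parental replicate 3. Boundary 3, in the gene 4930519F16Rik, ranged from 0.336 to 0.660 in parental and from 0.321 to 0.754 in deletion libraries with a median of 0.536. Its difference of 0.037 (exact permutation p = 0.587) joined -0.040 in clone 1 with 0.114 in clone 2, and ranged from 0.012, without clone 2 replicate 3, to 0.063, without clone 1 replicate 1.

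Boundary 4, which overlaps Xist, Tsix and Enox, was the strongest of the 6. Parental libraries scored 1.76, 1.69, 1.54 and 1.66, and the deletion libraries ranged from 1.17 to 1.75 with a median of 1.62. The lowest deletion value was clone 2 replicate 3. The difference was -0.089 (95% interval -0.310 to 0.112, exact permutation p = 0.396). Without clone 2 replicate 3 it was -0.037 (exact permutation p = 0.547), and without parental replicate 4 it was -0.058. Boundary 5, the boundary beyond Rlim, whose product is a ubiquitin ligase that activates Xist, scored 0.850 and 0.851 in the first-run parental libraries and 0.883 to 0.895 in the deletion libraries of that run, which did not overlap. In the second run the parental scores of 0.902 and 0.932 overlapped with 0.894 to 0.9748, and the difference over both runs was 0.027 (p = 0.0978, exact permutation). On raw counts boundary 5 was the 1 boundary of 6 that passed, at 0.040 with an exact permutation p of 0.0267 adjusted over the 6. Boundary 6, between Cox7b, a respiratory chain subunit, and Atp7a, a copper transporter, showed the same arrangement: first-run parental scores of 0.712 and 0.676 lay below the deletion scores of 0.798 to 0.847, second-run parental scores of 1.01 and 0.937 overlapped with 0.848 to 1.01, and the difference was 0.041 (exact permutation p = 0.329), or 0.024 without parental replicate 4. Adjusted over the 6 boundaries, the smallest p was 0.409.

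**Figure D1:**
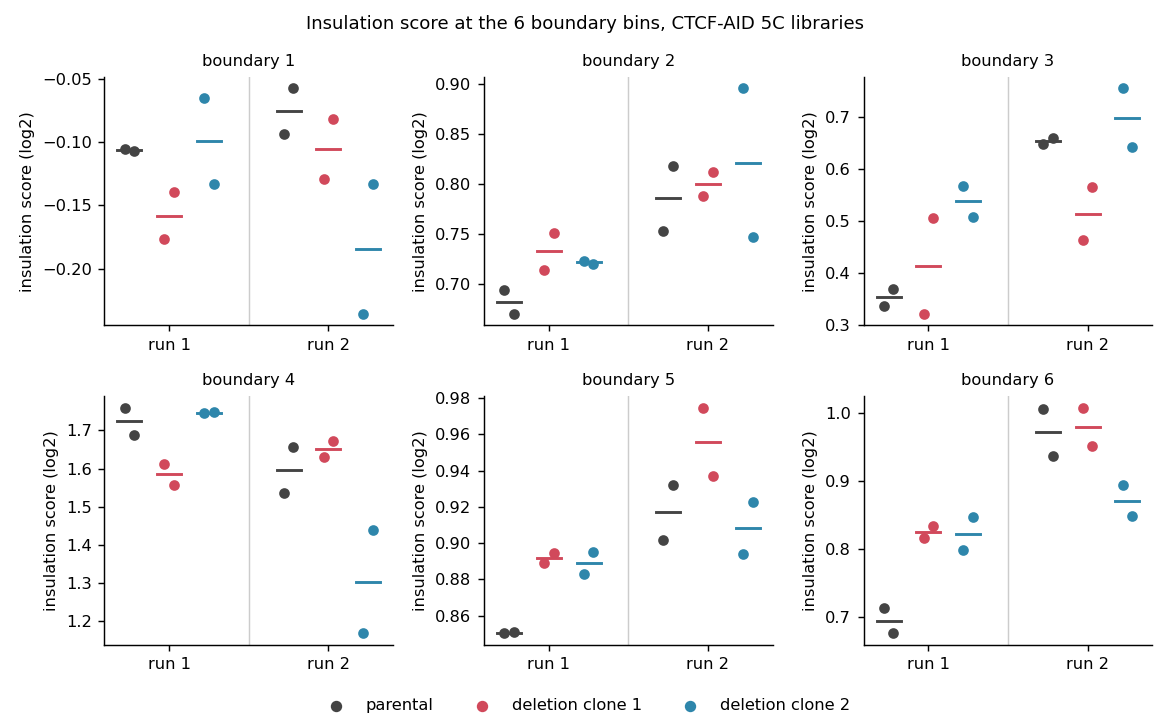
Insulation score (log2 scale, vertical axis, one scale per panel) at each of the 6 boundary bins in the 12 CTCF-AID libraries, split by run; points are libraries, bars are means of 2 libraries. First-run parental points lie below the deletion points at boundaries 2, 5 and 6 and second-run points overlap there, the second run lies higher than the first at boundaries 2, 3, 5 and 6, and clone 2 replicate 3 is the lowest point at boundary 4 (1.17).

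The listed boundary bins were not always the summit of the local profile. Within 1 bin of each, the highest score in untagged parental cells was found 20 kb before the listed bin at boundaries 1, 3, 4 and 6, 20 kb after it at boundary 5, and in the bin itself at boundary 2. In CTCF-AID cells the bin 20 kb before boundary 2 scored higher than the listed bin in every library. Its means were 0.891 in parental and 0.959 in deletion cells, against 0.734 and 0.769 at the listed bin. At the summit of boundary 1 the CTCF-AID parental score was 0.345 ± 0.115 (SD, n = 4) and the deletion score 0.372 ± 0.124 (SD, n = 8), and at that of boundary 4 they were 2.06 ± 0.035 and 1.97 ± 0.136. At the boundary 4 summit parental libraries scored 2.03 to 2.10, and every clone 1 library was lower, at 1.96 to 2.01. Clone 2 was above the parental values in the first run (2.14 and 2.13) and below them in the second (1.76 and 1.81). The difference was -0.090 (limma adjusted p = 0.448), and in untagged cells it was -0.174 (limma adjusted p = 0.266). With the highest bins of untagged parental cells in place of the listed ones, the mean over boundaries differed by -0.0041 (exact permutation p = 0.889).

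**Figure D2:**
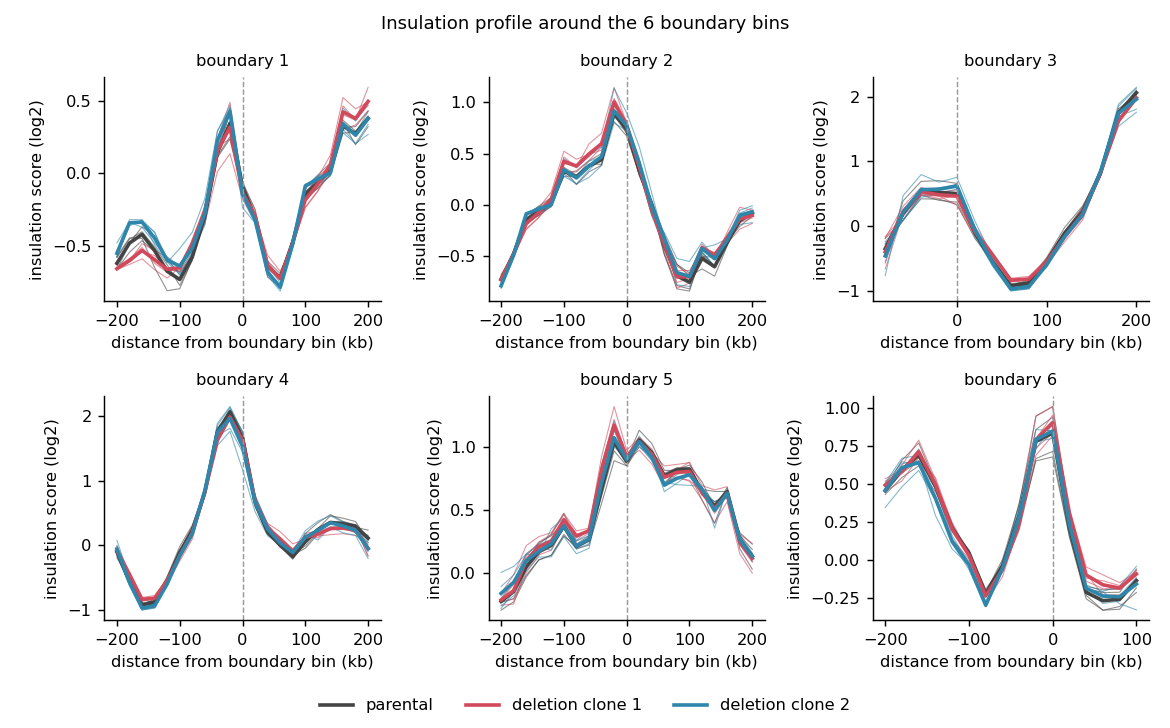
Insulation score (log2 scale) against distance from each listed boundary bin in kb, for parental, clone 1 and clone 2 cells; thin lines are libraries, thick lines are means of 4. Curves run together around each boundary, and the summit lies 20 kb left of the dashed line at boundaries 1, 2 and 4.

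Across the whole profile, 1 of 193 bins (0.518%) passed the test of deletion against parental (limma, adjusted p over all bins). This was the bin at chrX:100871148-100891147, 200 kb beyond boundary 4, which holds no CTCF peak and no annotated gene. Parental libraries scored 0.235 and 0.154 in the first run and -0.018 and 0.072 in the second. Clone 1 scored 0.126, 0.019, -0.171 and -0.159, and clone 2 scored 0.040, 0.045, -0.203 and -0.100. Within each run every deletion library lay below both parental ones. The difference was -0.161 (95% interval -0.230 to -0.092, limma adjusted p = 0.0284), -0.157 in clone 1 and -0.165 in clone 2. In untagged cells the deletion differed from its parental cells by 0.0022 at this bin, and the test of the difference between the backgrounds gave a limma adjusted p of 0.600. Leaving out 1 library at a time removed the call in 8 of 12 cases (it was kept without parental replicate 2, clone 1 replicate 1 and clone 2 replicates 3 and 4), with the smallest adjusted p of the profile between 0.0133 and 0.286.

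In the other direction, the bin with the smallest p was chrX:99531148-99551147, within Hdac8, which encodes the deacetylase of the cohesin subunit SMC3. Its score was -0.502, -0.621, -0.484 and -0.466 in parental cells and between -0.456 and -0.361 in the deletion libraries, higher in each run than both parental libraries. That difference of 0.100 had a limma adjusted p of 0.342. Groups did not overlap in either run at 3 bins with higher scores in deletion cells (1.55% of 193) and at 1 with lower scores (0.518%). The median half-width of the 95% interval at a bin was 0.0784, so smaller differences at single bins were mostly not detectable. That interval is unadjusted, and a larger difference could also fail the adjusted test, as the 0.100 within Hdac8 did.

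**Figure D3:**
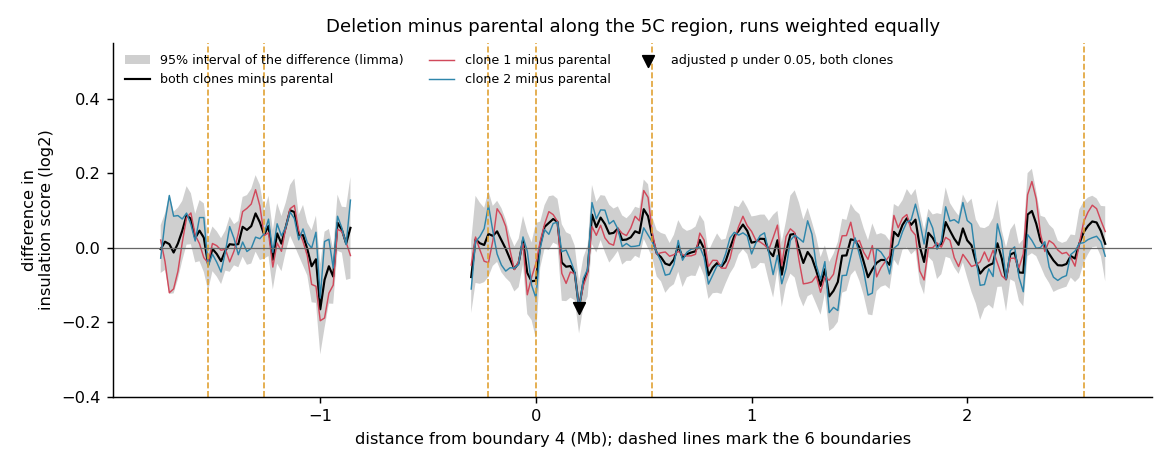
Difference in insulation score (log2, deletion minus parental) for each 20-kb bin against distance from boundary 4 in Mb; the black line is both clones, the grey band its 95% limma interval, coloured lines the clones, and gaps are bins without a score. One bin, 0.2 Mb from boundary 4, is marked as past an adjusted p of 0.05, with a difference of -0.161.

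The clones were compared with parental cells one at a time, since each is 1 cell line. Clone 1 alone gave 17 of 193 bins (8.81%), 10 higher and 7 lower, and clone 2 alone gave 0 of 193 (28 at an unadjusted p under 0.05), both by limma. Of the 17, 12 had the same sign in clone 2. Both clones were set against the same parental libraries, which by itself favours equal signs. The share of equal signs over all 193 bins was not computed. Many were neighbours, whose squares overlap. Lower scores lay at 3 bins from Hdac8 into Phka1, a subunit of phosphorylase kinase, where the middle bin went from 0.584, 0.578, 0.524 and 0.475 in parental cells to 0.390, 0.443, 0.332 and 0.241. Clone 2 had 0.663, 0.681, 0.323 and 0.560 there, spanning the parental values. A lower score also lay before boundary 4, at chrX:100631148-100651147 in Tsix, a bin with 3 CTCF peaks (-0.126, limma adjusted p = 0.0223). Parental libraries scored 1.73, 1.76, 1.81 and 1.70 there, and clone 1 scored 1.61, 1.66, 1.59 and 1.64. Clone 2 had 1.88, 1.85, 1.54 and 1.69, again on both sides of the parental values. Higher scores lay at the 2 bins before boundary 5, at 3 bins from Fgf16 into Atrx, a chromatin remodeller, and at 2 bins within Atp7a.

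The difference between clones passed its own limma test at 3 of 193 bins (1.55%), all adjoining, near the start of the region around 8030474K03Rik. At the first of them, chrX:98971148-98991147, parental scores were -0.481, -0.544, -0.445 and -0.453. Clone 1 scored -0.603, -0.585, -0.628 and -0.590, below every parental library. Clone 2 scored -0.361, -0.347, -0.319 and -0.336, above every parental library. Clone 2 minus clone 1 was 0.261 (limma adjusted p = 0.000786), and at the next 2 bins 0.195 and 0.149. Setting a clone's change in one run against a change in the other run, which share no libraries, gave a Pearson correlation over the 193 bins of 0.382 for clone 1 with itself, 0.133 for clone 2 with itself, and 0.139 and -0.039 for the 2 crossings of the clones. Neighbouring bins share contacts, so these describe the profiles and carry no test.

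Contacts were then taken by domain, to see whether segments mix. The 6 boundaries cut the region into 7 segments, numbered by increasing coordinate, and each contact was divided by its library's average for that distance (observed over expected, log2 scale). Of 14 classes, 0 differed (exact permutation within runs, smallest adjusted p 0.762; 0 classes had an unadjusted p under 0.05). Within segment 1, which holds Ogt, the enzyme that adds GlcNAc to proteins, and Cxcr3, a chemokine receptor, parental values of 0.514, 0.539, 0.587 and 0.515 compared with 0.477 to 0.538 in deletion cells with a median of 0.513, a difference of -0.026 that was -0.0081 without parental replicate 3 and -0.044 without parental replicate 4. In segment 3, with Cited1, Hdac8 and Phka1, they were 0.365, 0.346, 0.410 and 0.373 against 0.318 to 0.477 with a median of 0.415, a difference of 0.034 (exact permutation p = 0.120). In segment 4, the domain of Tsx, Chic1 and Cdx4, parental values of 0.363 to 0.434 met 0.359 to 0.469 in deletion cells, and the difference was 0.0096.

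In segment 5, which ends at boundary 5, the difference was 0.0011 with the narrowest interval of the 14, -0.018 to 0.019. It was 0.0036 in segment 6, the largest, between boundaries 5 and 6. In the auxin-treated transgene line the value in segment 5 fell by 0.135 without doxycycline, given without a test.

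Contacts across boundaries were compared next. Across boundary 4, between segments 4 and 5, contacts were the most depleted of all classes, at -1.03, -1.05, -1.05 and -0.953 in parental cells. The deletion libraries ranged from -1.08 to -0.790 with a median of -0.997, with clone 2 replicates 3 and 4 the highest (-0.790 and -0.834). The difference was 0.051 (95% interval -0.057 to 0.164, exact permutation p = 0.311), and it was 0.031 without clone 2 replicate 3 and 0.028 without parental replicate 3. Across boundary 2 it was -0.044, from -0.086 in clone 1 and -0.00236 in clone 2. Across boundaries 1, 3 and 5 the differences were 0.0069, 0.0037 and 0.021. The auxin-treated transgene line without doxycycline was higher across boundaries 1, 2, 3 and 5 by 0.198, 0.205, 0.202 and 0.177, but across boundaries 4 and 6 its values were -0.022 and -0.454, all untested. The deletion's difference across boundary 6 was -0.017, between -0.029 and -0.0066 with 1 library left out. Across boundary 5 it was 0.010 without parental replicate 1 and 0.032 without parental replicate 2. The upper ends of the intervals for boundaries 1, 2, 3 and 5 were 0.086, 0.029, 0.064 and 0.057.

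**Figure D4:**
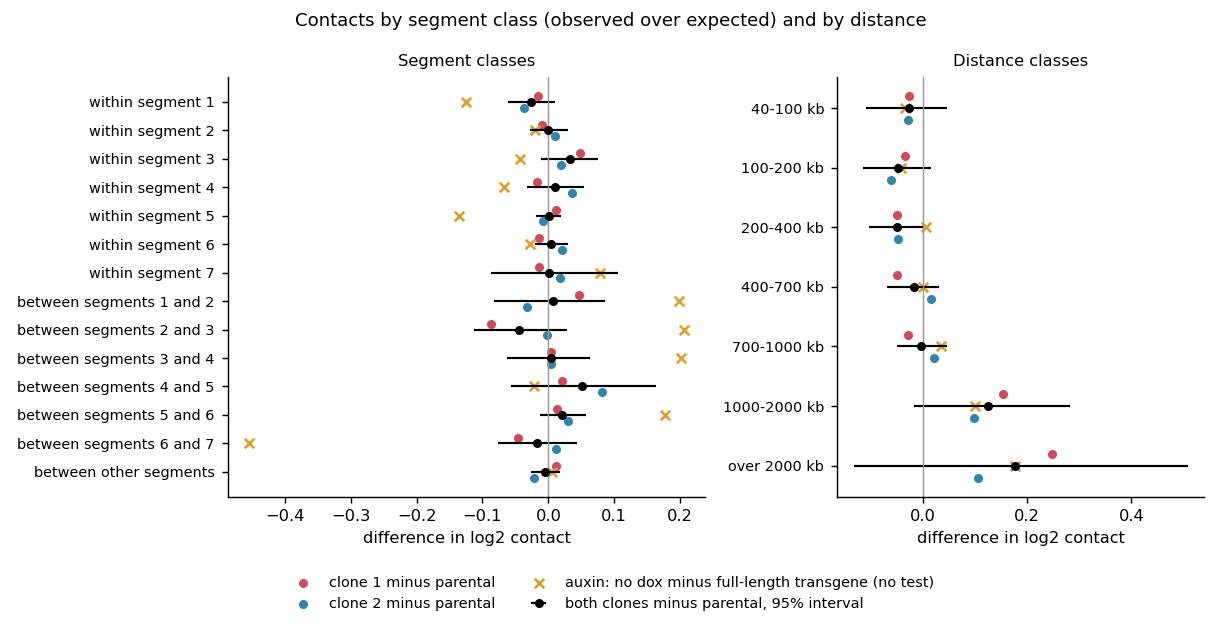
Difference in log2 contact, deletion minus parental, for the 14 segment classes (left, observed over expected) and the 7 distance classes (right, signal); black points with bars are both clones with 95% permutation intervals, coloured points are single clones, and crosses are auxin-treated transgene cells without minus with doxycycline, untested. All 21 intervals include 0, and the crosses for contacts between segments 1 and 2, 2 and 3, 3 and 4, and 5 and 6 lie to the right of the black bars.

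Contact frequency by distance was taken as log2 of the mean signal in 7 distance classes, after the contacts from 40 kb on were scaled to the same total in every library. At 100 to 200 kb, parental log2 signal was 7.71 and 7.71 in the first run and 7.64 and 7.62 in the second. Deletion libraries had 7.66 to 7.69 in the first and 7.44 to 7.616 in the second, where the lower parental library had 7.621, so all 8 lay below both parental libraries of their run. The difference was -0.047 (95% interval -0.114 to 0.015, exact permutation p = 0.124). Without clone 2 replicate 3 it was -0.027 (exact permutation p = 0.0267; 0.187 adjusted over 7 distance classes). At 200 to 400 kb it was -0.048 (p = 0.0578, exact permutation; adjusted over 7 distance classes 0.290). At 40 to 100 kb it was -0.027. At 400 to 700 kb it was -0.017, between -0.026 and -0.0077 with 1 library left out, and at 700 to 1000 kb -0.0032. From 1000 to 2000 kb it was 0.126 (95% interval -0.016 to 0.283, exact permutation p = 0.107), between 0.092 and 0.152 with 1 library left out. Beyond 2000 kb it was 0.177, between 0.249 in clone 1 and 0.105 in clone 2, and the interval was wide, -0.132 to 0.508. Without clone 2 replicate 3 it was 0.111.

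The slope of log2 signal on log2 distance from 100 to 1000 kb was computed from the same maps. Parental slopes were -1.02, -1.03, -0.957 and -0.947. Those of clone 1 were -1.01, -1.004, -0.944 and -0.942, and those of clone 2 were -1.01, -1.004, -0.847 and -0.932. In both runs each deletion library had a shallower slope than both parental ones. Of 30 single measures, 1 (3.33%) had groups apart in both runs with higher deletion values, this slope, and 1 (3.33%) with lower values, the contacts at 100 to 200 kb. The mean difference of 0.026 did not pass (95% interval -0.0079 to 0.064, exact permutation p = 0.151). Clone 2 replicate 3 is far from the others at -0.847, and without it the difference was 0.014 with p = 0.00667 by exact permutation, the smallest that 11 libraries can give. With the median over primer pairs in place of the mean, the slope differed by -0.031 and the contacts at 100 to 200 kb by 0.0077, the other way in both. The share of counts under 100 kb was higher in deletion cells in the first run, at 59.9% and 59.0% in parental, 61.0% in both clone 1 and 66.5% and 67.2% in clone 2 libraries. In the second run it was 65.4% and 64.8% in parental, 63.1% and 63.8% in clone 1 and 54.8% and 65.2% in clone 2 libraries. Its part in these values was not tested. Untagged deletion cells also had a shallower slope than their parental cells, by 0.019 (exact permutation p = 0.08), and the 2 effects differed by 0.0069 (exact permutation p = 0.802).

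Contacts were then examined between bins that both hold a FLAG-CTCF peak, 100 to 1000 kb apart, 344 pairs in all. These pairs were taken whatever the strand of their motifs and were not called as loops. Their mean log2 observed over expected was 0.074, 0.080, 0.022 and -0.014 in parental cells. Across deletion libraries it ranged from -0.0086 to 0.125 with a median of 0.029, the highest being clone 2 replicate 4. The difference was -0.00013 (95% interval -0.052 to 0.062, exact permutation p = 1.0). In the auxin-treated transgene line this mean was higher by 0.077 without doxycycline, untested.

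The 10 pairs highest in the untagged parental libraries gave a stricter set. They include the contact from boundary 2 to a bin 260 kb away in Hdac8 (pair 2) and those from a bin in segment 3 to Tsix and Xist (pairs 5 and 8, 760 and 780 kb). Pair 2 stood at 5.34, 5.48, 6.04 and 5.74 times expected in parental cells and at 4.24 to 6.67 in deletion cells. Its log2 difference, -0.107, had an exact permutation p of 0.382. Pair 5 stood at 4.35 ± 1.18 (SD, n = 4) and 4.54 ± 0.719 (SD, n = 8). Pair 8 stood at 4.14 ± 1.63 and 4.07 ± 1.07.

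Pair 7, 820 kb from C77370 to a bin with no gene, had the smallest p. Parental values were 3.93, 3.57, 3.19 and 3.52, and clone 1 had 6.65, 5.74, 3.70 and 4.22. Clone 2 had 3.79, 5.36, 4.98 and 6.50. Within runs 7 of 8 deletion libraries were above both parental ones and 1 of clone 2 lay between them, and the log2 difference was 0.498 (exact permutation p = 0.0267). In the fit across all bin pairs it had a limma adjusted p of 0.929, as did pairs 9 and 10, which were lower. Single pairs spread widely: pair 1 ranged from 0.252 to 8.01 within the deletion libraries.

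**Figure D5:**
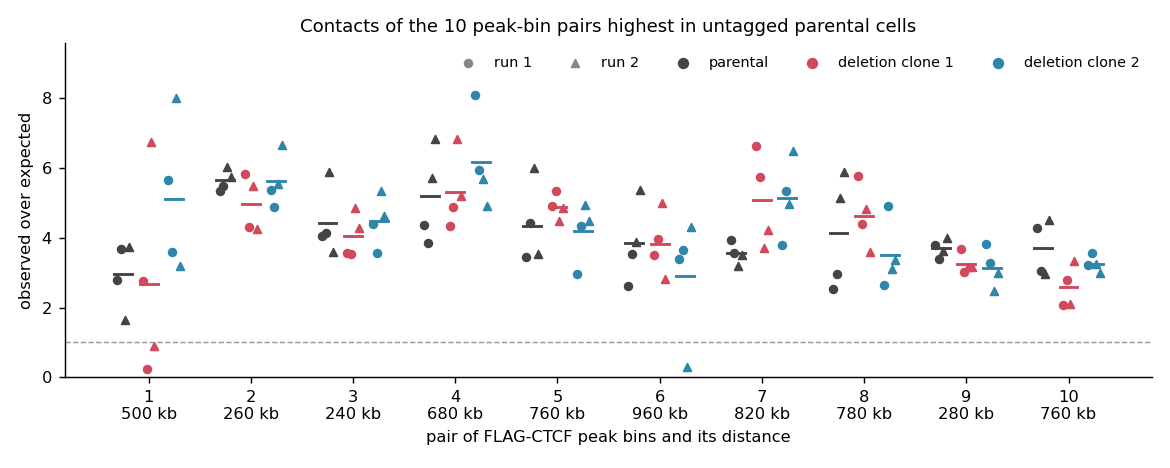
Observed over expected contact (linear axis from 0; dashed line at 1) for the 10 pairs of FLAG-CTCF peak bins with the highest mean in untagged parental cells, with the distance of each pair in kb; circles are first-run and triangles second-run libraries, bars are means of 4. The 3 lines overlap at most pairs, and pair 7 has both clone means above the parental mean (3.55).

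Over the whole map, 0 of 19072 bin pairs (0%) differed between deletion and parental cells (limma, adjusted p; 965, or 5.06%, had an unadjusted p under 0.05). With edgeR on raw counts 0 of 19237 passed and 739 had an unadjusted p under 0.05. DESeq2 gave an adjusted p to 5437 of the same 19237 pairs and called 8 (0.147%), all higher. On simulated counts with planted changes DESeq2 made 25 false calls and edgeR 2. Those counts were drawn with the spread that edgeR estimated and with no difference between runs, unlike the data. They do not decide whether the 8 calls are false. The smallest limma p among lower pairs belonged to boundary 1 and a bin 420 kb away in Hdac8. Its signal was 2.08, 1.21, 0.662 and 1.85 in parental libraries and 0 in 7 of 8 deletion libraries, the exception being clone 2 replicate 1 at 0.933. With an adjusted p of 0.740 this did not pass. The second, 1280 kb apart and reaching Magt1, had 0.562, 1.10, 0.780 and 0.741 in parental cells against 0 to 0.316.

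Other lower pairs, 3740, 4500 and 1080 kb apart, had limma differences of -1.84, -1.91 and -1.36. At the first 2 of these the signal was at most 0.631 and 0.675, and 0 in most deletion libraries. Among higher pairs the fit placed first a pair 3300 kb apart, from Phka1 to Atrx, at 1.45. Its signal was low, 0 to 0.023 in parental and 0.093 to 0.343 in deletion libraries, where 0.1 was added before the log. Those next in order lay 2700, 2520, 3580 and 580 kb apart with differences of 1.35, 0.694, 0.560 and 0.554. The third joins a bin 40 kb beyond boundary 4 with one in Atp7a: parental signal was 3.80 and 3.41 in the first run and 14.05 and 14.5 in the second, and that of the deletion cells 5.32 to 7.40 and then 15.0 to 25.4. All 5 had a limma adjusted p of 0.820. Clone 2 against clone 1 gave 0 of 18821 pairs (1077 at an unadjusted p under 0.05). The median half-width of the interval was 0.770 on the log2 scale, so smaller changes of single bin pairs were mostly not detectable at this depth. That interval is unadjusted, and larger changes could be missed too. On simulated data limma recovered 17.9% of changes of 1 and 54.5% of changes of 2.

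The same deletion in untagged cells was the closest comparison. Its effect on the mean over 6 boundaries was -0.028 there and 0.0011 in CTCF-AID cells, a difference of effects of 0.029 that did not pass (exact permutation within background and run, p = 0.333). The listed bin of boundary 2 was the exception. Untagged parental libraries scored 0.905, 0.879 and 0.990 at boundary 2, and the 7 untagged deletion libraries between 0.745 and 0.838, with no overlap. The library at 0.990 was the only untagged parental one in the second run, and the runs were weighted equally. CTCF-AID parental libraries were already at 0.670 to 0.818, and their deletion libraries at 0.714 to 0.896. The effect was -0.154 in untagged and 0.035 in CTCF-AID cells, and the 2 effects differed by 0.189 (exact permutation p = 0.00187; 0.0112 adjusted over the 6 boundaries; limma adjusted p over all bins 0.0271). That was the 1 bin of 193 (0.518%) called in the test between backgrounds. At the bin before it, the summit in CTCF-AID cells, the effects were 0.068 in CTCF-AID and 0.019 in untagged cells. At the bin after it they were 0.058 and -0.117. Neither difference of effects passed (0.049 and 0.175, limma adjusted p = 0.982 for both). Of the segment and distance classes 0 of 14 and 0 of 7 differed between backgrounds, with smallest adjusted p of 0.305 and 0.515. Of 19237 bin pairs 0 did (limma; 869 had an unadjusted p under 0.05).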

How the data were processed

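The authors digested chromatin with HindIII, ligated it in situ, mapped reads to mm9, and deposited raw counts per primer pair and an iteratively corrected signal per primer pair, normalized in each library. Corrected files came in 2 layouts, a forward-by-reverse matrix in parental replicates 1 and 2 and clone 2 replicate 2 and a symmetric one otherwise; a new correction of the counts differed from them by at most 0.156 on the log2 scale. The FLAG-CTCF peaks, which the authors deposited as positions with no score, are those shared by 2 libraries of cells expressing full-length FLAG-CTCF.

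Each library was scaled to a total of 1000000 and averaged over primer pairs in 20-kb bins; 193 of 230 bins had a score (at least 50% of the square measured). Contacts start at 40 kb. Single values were tested by two-sided exact permutation within runs (225 assignments), with intervals by inverting the test; bin pairs (log2 of signal + 0.1, mean of at least 0.1) and the profile by limma 3.58.1 with run as a term and Benjamini-Hochberg adjustment. edgeR 4.0.16 and DESeq2 1.42.0 on summed counts, raw counts scaled to 1000000, other windows, bins and blocks, each clone alone and each library left out were alternatives. Members, boundaries and lists were chosen with earlier results of these data known. The named regions were the 6 boundaries, the 14 segment classes, the 10 peak-bin pairs highest in untagged parental cells, the 5 bin pairs with the smallest p in each direction and the bin with the smallest p in each direction; other bins were named after their values were seen. The scripts were tested on simulated data. For the deletion against parental comparison over 19072 bin pairs, limma recovered 54.5% of changes of 2 on the log2 scale and 17.9% of changes of 1. Over the 193 bins of the profile it recovered 80% of changes of 0.2. It made 3 false calls over the bin pairs and 2 over the bins of the profile.

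Same-numbered libraries of different lines deviated together (correlation of profile deviations 0.233 to 0.606 over 12 pairs), as did differently numbered libraries of the same run (0.165 to 0.534), so the number marks the run; after run means were removed the same-number correlations lay between -0.110 and 0.249. Libraries came from clones, and nothing says that replicates were separate derivations, so p-values measure the spread between libraries. The 66 pairs of libraries shared at most 1.95% equal counts, so none was counted as a duplicate.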

Additional observations from a re-analysis of the deposited data

Results flagged for a closer look

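At boundary 2, clone 2 replicate 3 scored 0.896, apart from the other 3 clone 2 libraries at 0.721 to 0.747; it was the only one of 90 groups of 4 values in which 1 library stood this far from the rest, where chance alone gives about 1 in 20. It is the shallowest library, and the part of depth in this value was not tested.

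The deletion's effect on insulation at the listed bin of boundary 2 differed between CTCF-AID and untagged cells by 0.189, with a single untagged parental library in the second run. On raw counts the same difference was 0.144 with an adjusted p of 0.0752. The CTCF-AID parental level at this bin (0.734 ± 0.066, SD, n = 4) was itself below the untagged parental mean of 0.925.

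The clones differed from each other at 3 adjoining bins near the start of the region, by 0.261, 0.195 and 0.149 (clone 2 minus clone 1, limma).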

How the results depend on the processing

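Run was the block in every comparison. Under a replicate block, with the replicate number in place of the run, the mean over boundaries differed by 0.0011 (exact permutation p = 0.988), the profile kept 1 called bin and no call of a single value changed. With no replicate block the profile had 0 calls, the test between backgrounds had 0 in the profile, and the difference of effects was -0.022 at boundary 4 and -0.0063 for the slope. On raw counts the mean over boundaries reversed to -0.0404, boundary 3 to -0.114, segments 3, 6 and 7 to -0.012, -0.022 and -0.012, and contacts at 400 to 700 kb to 0.012; 1 boundary and 0 profile bins passed. Between backgrounds raw counts gave 2 boundaries, neither of them boundary 2, and 0 profile bins. The difference of effects was then -0.0038 for the mean, 0.023, -0.079 and -0.0012 at boundaries 1, 4 and 6, and -0.0089 for peak bins. The median over primer pairs gave -0.031 for the slope, 0.056 for peak bins, -0.012, -0.012 and -0.0033 within segments 2, 5 and 7, -0.0014 between segments 5 and 6, 0.052 between 6 and 7, 0.041 and 0.0077 at 40 to 100 and 100 to 200 kb, and 0 profile bins. A 200-kb window gave 0.011, -0.030 and -0.033 at boundaries 1, 2 and 5 and 0 profile bins.

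Clone 1 alone gave -0.040 at boundary 3, -0.0089, -0.017, -0.014 and -0.015 within segments 2, 4, 6 and 7, 0.011 between other segments and 17 profile bins. Clone 2 alone gave -0.00097 for the mean, -0.0088 within segment 5, -0.033 between segments 1 and 2, 0.012 between 6 and 7, 0.016 and 0.022 at 400 to 700 and 700 to 1000 kb, 0.018 for peak bins and 0 profile bins. Peak bins 200 to 600 kb apart gave 0.038. DESeq2 called 8 bin pairs. Some alternatives were chosen after seeing the data: a new iterative correction, which reversed nothing, and the highest bin within 1 bin of each boundary, with -0.0041 for the mean, 0.027 at boundary 1 and -0.015 at boundary 5.

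Leaving out each library in turn gave -0.0071 to 0.0092 for the mean over boundaries, 0.014 to 0.030 for the slope, -0.015 to 0.0089 for peak bins, 0 to 2 bin pairs and 0 to 1 profile bins. It gave -0.0063 to 0.0076 within segment 2, -0.0040 to 0.023 within 4, -0.0013 to 0.0047 within 5, -0.0016 to 0.0083 within 6, -0.027 to 0.017 within 7, -0.0048 to 0.026 between 1 and 2, -0.0062 to 0.019 between 3 and 4 and -0.013 to 0.0070 at 700 to 1000 kb. The cause of these changes was not tested.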
